A study of Sus scrofa with 6 samples.

Results

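The fibroblast growth factors, the epidermal growth factor family and vascular endothelial growth factor A (VEGFA) were examined in cells scraped from the uterine mucosa. They made up 10 of the 6765 genes that the annotation of an Affymetrix porcine array names, with 17 of its 24123 probe sets. The genes were the ligands FGF2, FGF7, FGF9, EGF, HBEGF, AREG and VEGFA and the receptors FGFR1, FGFR2 and EGFR, and every probe set that the array annotation names with the symbol of 1 of these genes alone was taken. VEGFA had 4 probe sets, FGF2, FGF7, FGFR1 and EGFR had 2 each, and the other 5 genes had 1 each. The 3 animals were weaned Landrace x Large White crossbred sows, and in each of them laparoscopic insemination delivered spermatozoa to the oviduct of one side and diluent without spermatozoa to the oviduct of the other. On day 6 the horn of the inseminated side held blastocysts (the embryos group, n = 3 horns) and the contralateral horn of the same sow held unfertilised oocytes (the oocytes group, n = 3 horns). Each horn gave 1 array, from cells scraped with a glass slide off the mucosa next to the utero-tubal junction (10 cm per the labels, while the methods give a longer stretch as well), with no sorting of cell types described. Both horns of a sow therefore shared genotype, cycle stage, anaesthesia and circulating hormones, and the oocyte horn stood as the control of the embryo horn.

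The 3 families act through receptor tyrosine kinases on the cell surface. FGF ligands bind their receptors together with heparan sulfate chains, EGF family ligands are made as membrane-bound precursors that are shed before they reach EGFR, and VEGFA drives the growth and permeability of blood vessels. All of them feed into the RAS-MAPK and PI3K-AKT relays. In the pig uterus FGF7, also called keratinocyte growth factor, is made by the endometrial epithelium, while its receptor FGFR2 is carried by epithelia and by the trophectoderm of the conceptus.

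The signals were intensities in arbitrary units made with MAS5, a probe set summary that scales each array to the same mean, and the median signal of the 6 arrays ranged from 30.6 to 35.8. Between 25.4% and 29.0% of the signals of an array were under 10. The 6 epithelial marker genes (EPCAM, CDH1, KRT8, KRT18, KRT19 and MUC1) were all named on the array, with a summed signal of 7599 to 10367. Probe sets named for markers of other cells had sums of 3427 to 7364 for stroma, 462 to 2141 for smooth muscle, 307 to 499 for endothelium, 64.7 to 130 for leukocytes and 71.9 to 93.1 for ciliated cells. No marker signal was at 0, but only 1 to 3 of the 24123 probe sets of an array were, so a signal above 0 does not show that a cell type was present. The 9 stromal probe sets lay at percentiles 5.6 to 98.9 of the signal and the 5 smooth muscle ones at 2.7 to 96.3. The stromal markers VIM, DCN (Ssc.10245.2.A1_a_at) and LUM, at 98.9, 98.9 and 98.1, and ACTA2 of smooth muscle, at 96.3, were thus bright in these scrapings. The 6 leukocyte probe sets lay at percentiles 12.9 to 45.3 of the signal and the 3 ciliated ones at 39.5 to 54.3. The ciliated genes FOXJ1, PIFO and DNAH9, the stromal gene COL1A1, the smooth muscle gene MYH11 and the leukocyte gene CSF1R were not named. The 5′/3′ signal ratio of a control transcript, which falls as RNA shortens, was 0.355, 0.200 and 0.226 for GAPDH in the oocyte horns of sows 1, 2 and 3 and 0.243, 0.130 and 0.199 in the embryo horns, so it was lower with embryos in every sow. The actin ratio was lower with embryos in every sow too. Averaged over GAPDH and actin, the ratio of the embryo horn lay below that of the oocyte horn by 0.55, 0.74 and 0.19 on the log2 scale in sows 1, 2 and 3, where a two-sided exact test over the sign flips of 3 pairs gave p = 0.25, the smallest it allows. The part of this ratio in the differences between horns was not tested.

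No probe set of the 10 genes passed the test for a difference between embryo and oocyte horns. In the limma fit with Benjamini-Hochberg adjustment over 23999 probe sets, 0 of the 17 had an adjusted p under 0.05, as did 0% of all probe sets, and every one of the 17 had an adjusted p of 0.9996. At an unadjusted p under 0.05 the count was 0 of 17, where the array had 692 probe sets or 2.88%. With the sow as a block the adjusted count was again 0 of 17 and 0% of the array, and the unadjusted count 0 of 17, where the array had 2088 or 8.70%. The log2 fold change, embryos minus oocytes, was positive for 9 probe sets and negative for 8, with a median of 0.07 beside 0.01 over all probe sets tested. Leaving out 1 array moved this median to between -0.011 (without the oocyte horn of sow 2) and 0.19 (without the embryo horn of sow 1). The groups overlapped for all 17 probe sets, while 4.03% of the array had every embryo horn above every oocyte horn and 3.98% every embryo horn below.

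**Figure D1:**
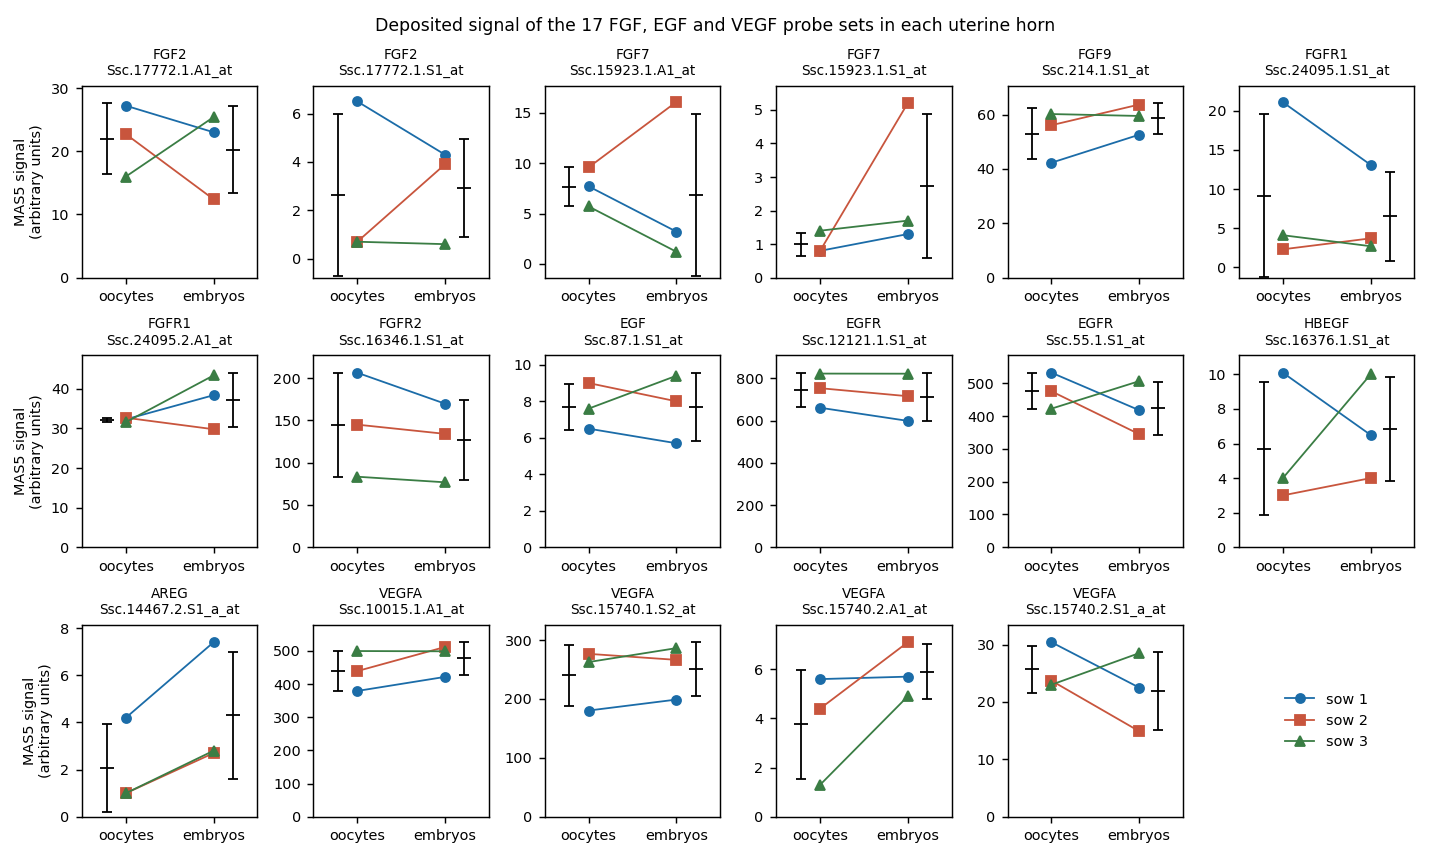
Deposited MAS5 signal (vertical axis, arbitrary units, a scale of its own in each panel) of the 17 probe sets in the horns with oocytes and with embryos. Lines join the 2 horns of a sow, and the black marks beside them are the mean and SD of the 3 horns of a group; in no panel do the embryo horns lie apart from the oocyte horns.

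FGF9 is a growth factor made by uterine epithelia. Among FGF2, FGF7 and FGF9, it had the only probe set with a mean signal above the median of the array. Its signal was 42.3, 56.1 and 60.2 in the oocyte horns of sows 1, 2 and 3 and 52.6, 63.7 and 59.5 in the embryo horns. The embryo horn was the higher of the pair in sows 1 and 2 and almost level in sow 3. The log2 fold change was 0.16 (standard error 0.23, 95% interval -0.37 to 0.68, limma).

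FGF2, or basic FGF, which binds heparan sulfate and acts on stromal and endothelial cells, was measured by Ssc.17772.1.A1_at and Ssc.17772.1.S1_at. The A1 probe set gave 27.2, 22.7 and 16.0 in the oocyte horns and 23.0, 12.4 and 25.4 in the embryo horns of sows 1, 2 and 3. Its log2 fold change was -0.16 (standard error 0.37, interval -1.01 to 0.68), and it was lower with embryos in sows 1 and 2 and higher in sow 3. The S1 probe set lay at 6.5, 0.7 and 0.7 with oocytes and 4.3, 3.9 and 0.6 with embryos, and its log2 fold change of 0.51 had a standard error of 1.15.

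FGF7, the paracrine factor that acts on epithelial cells through an isoform of FGFR2, was measured by 2 dim probe sets that pointed in opposite directions. Ssc.15923.1.A1_at gave 7.7, 9.6 and 5.7 in the oocyte horns and 3.2, 16.1 and 1.2 in the embryo horns, and its log2 fold change was -0.95 (standard error 0.93, interval -3.08 to 1.18). Ssc.15923.1.S1_at gave 0.8, 0.8 and 1.4 in the oocyte horns and 1.3, 5.2 and 1.7 in the embryo horns, and its log2 fold change was 1.18 (standard error 0.87, interval -0.80 to 3.17). The embryo horn of sow 2 was the highest of the 6 horns with each of them. Within a sow, the embryo-to-oocyte difference of the A1 probe set lay below that of the S1 probe set by 1.95, 1.99 and 2.46 on the log2 scale in sows 1, 2 and 3. These values therefore give no single direction for FGF7. The array has 3 pairs of probe sets for these genes whose names share a target number (FGF2, FGF7 and the dimmer pair of VEGFA), and in all 3 the log2 fold changes of the pair had opposite signs. Single arrays moved the A1 value, whose log2 fold change was -2.04 without the embryo horn of sow 2 (unadjusted limma p of 0.0218) and -0.09 without that of sow 3 (unadjusted limma p of 0.915).

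The EGF family ligands among the 10 genes, EGF, HBEGF and AREG, had signals of at most 10.1 in every horn. EGF itself gave 6.5, 9.0 and 7.6 with oocytes and 5.7, 8.0 and 9.4 with embryos, and its log2 fold change of -0.04 (standard error 0.50) left an interval of -1.18 to 1.10. HBEGF, the heparin-binding ligand that the mouse uterus makes where a blastocyst attaches, gave 10.1, 3.0 and 4.0 with oocytes and 6.5, 4.0 and 10.0 with embryos. Its embryo horn was lower in sow 1 and higher in sows 2 and 3, with a log2 fold change of 0.34 (standard error 0.63, interval -1.10 to 1.79).

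AREG, amphiregulin, an EGFR ligand regulated by progesterone in the rodent uterus, had the highest log2 fold change of the 17 probe sets. Its signal was 4.2, 1.0 and 1.0 in the oocyte horns and 7.4, 2.7 and 2.8 in the embryo horns. The embryo horn was the higher one in all 3 sows, by 0.75, 1.55 and 1.33 on the log2 scale, yet the oocyte horn of sow 1 lay above the embryo horns of sows 2 and 3. The log2 fold change was 1.21 (standard error 0.80, interval -0.61 to 3.03), a ratio of 2.31 with an interval of 0.656 to 8.14, and the unadjusted limma p was 0.165. With 32 added to each signal, which compresses values this low, it shrank to 0.09.

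VEGFA was measured by 4 probe sets. Ssc.10015.1.A1_at gave 379.1, 439.0 and 499.4 in the oocyte horns and 421.5, 511.6 and 498.6 in the embryo horns. Normalized between arrays, it was higher with embryos in all 3 sows, by 0.14, 0.21 and 0.01 on the log2 scale. Its log2 fold change was 0.12 (standard error 0.13, interval -0.18 to 0.42), so that ratios outside 0.881 to 1.34 fell beyond the 95% interval. Ssc.15740.1.S2_at gave 180.3, 276.5 and 262.6 in the oocyte horns and 198.9, 266.3 and 286.2 in the embryo horns, and its log2 fold change was 0.07 (standard error 0.20, interval -0.38 to 0.51). The remaining probe sets were dimmer. Ssc.15740.2.S1_a_at gave 30.4, 23.7 and 23.0 with oocytes but 22.5, 14.9 and 28.5 with embryos, and its log2 fold change was -0.28 (standard error 0.32). Ssc.15740.2.A1_at gave 5.6, 4.4 and 1.3 with oocytes but 5.7, 7.1 and 4.9 with embryos, and its log2 fold change was 0.85 (standard error 0.68). Within the sows, the difference between horns thus ran from -0.06 to 0.21 at the 2 brighter probe sets and from -0.62 to 1.79 at the dimmer pair.

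Over the 7 ligands, 8 of 12 probe sets had a positive and 4 a negative log2 fold change, with a median of 0.14. Over the 3 receptors, 1 of 5 was positive and 4 negative, with a median of -0.18. Neither count was tested, since the genes were chosen with earlier results of these arrays known. On normalized values, the probe sets that were higher with embryos in all 3 sows were those of AREG, VEGFA (Ssc.10015.1.A1_at) and FGF7 (Ssc.15923.1.S1_at), 3 of 17 or 17.6%, where the array had 14.9%. The probe set of FGFR2 was lower in all 3 sows, 1 of 17 or 5.88%, where the array had 14.8%. The upward share was near that of the array and is no result about these genes.

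EGFR, the receptor for EGF, HBEGF and AREG, gave the most precise receptor values. Ssc.12121.1.S1_at lay at 661.1, 753.8 and 823.0 in the oocyte horns and 598.9, 715.8 and 822.5 in the embryo horns. Its log2 fold change was -0.07 (standard error 0.14, interval -0.39 to 0.25), a ratio of 0.951 with an interval of 0.761 to 1.19. Ssc.55.1.S1_at gave 532.6, 475.8 and 422.9 with oocytes and 418.2, 345.1 and 506.8 with embryos. Here the embryo horn was lower by 0.36 and 0.47 on the log2 scale in sows 1 and 2 and higher by 0.27 in sow 3, and the log2 fold change was -0.19 (standard error 0.17, interval -0.58 to 0.21).

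FGFR2, the receptor through which FGF7 acts on epithelium, had 1 probe set. Its signal was 206.4, 145.0 and 83.4 in the oocyte horns of sows 1, 2 and 3 and 169.8, 134.1 and 76.8 in the embryo horns. The embryo horn was the lower one in each sow, by 0.30, 0.11 and 0.13 on the log2 scale, but the sows stood further apart than their horns. The log2 fold change was -0.18 (standard error 0.38, interval -1.04 to 0.69), with an unadjusted limma p of 0.654, and of 0.140 with the sow as a block. Without the oocyte horn of sow 1 or the embryo horn of sow 3, which leaves the groups with different sows, the log2 fold change was 0.13 or 0.15.

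FGFR1, the receptor for FGF2 in many mesenchymal cells, had a probe set near the array median and a dim one. Ssc.24095.2.A1_at gave 32.3, 32.7 and 31.6 in the oocyte horns and 38.4, 29.8 and 43.4 in the embryo horns, and its log2 fold change was 0.18 (standard error 0.24, interval -0.37 to 0.73). Ssc.24095.1.S1_at gave 21.1, 2.3 and 4.1 in the oocyte horns and 13.1, 3.7 and 2.7 in the embryo horns, and its log2 fold change was -0.23 (standard error 0.90). Both horns of sow 1 lay above all other horns with this probe set and not with the former.

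**Figure D2:**
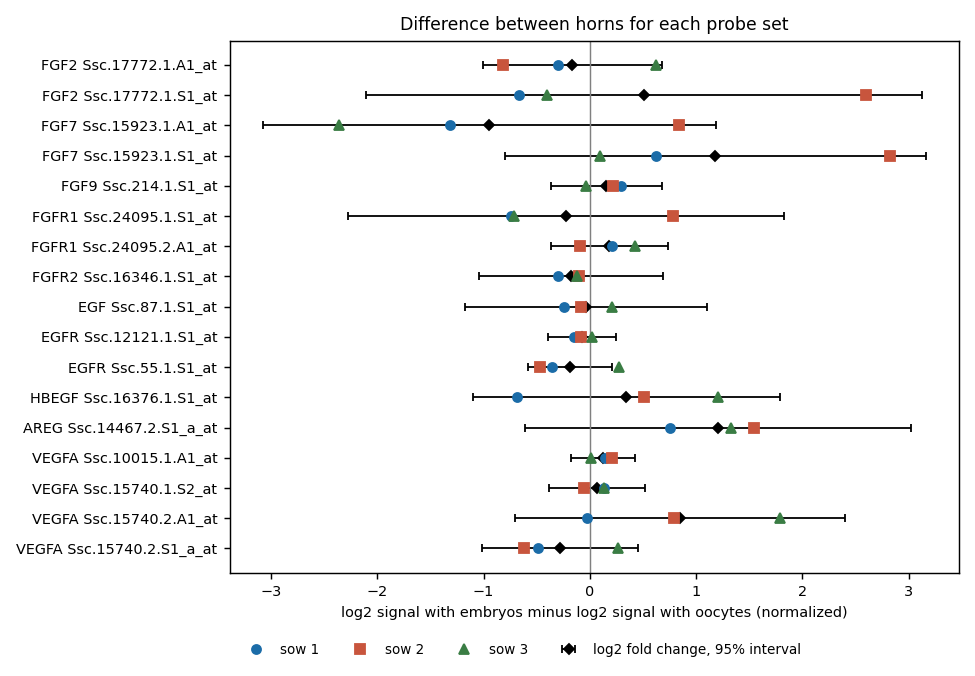
Normalized log2 signal of the embryo horn minus that of the oocyte horn (horizontal axis) for each probe set and sow, with the log2 fold change of the limma fit as a black diamond and its 95% interval as a line. The fit had no block for the sow, so its intervals do not use the pairing of the horns. All 17 intervals include 0, and they are narrowest for EGFR and VEGFA.

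How small a difference could have been seen varied with the signal and with the spread between sows. The 7 probe sets above the median signal of the array, of FGF9, FGFR1, FGFR2, EGFR and VEGFA, had standard errors of 0.13 to 0.38 and log2 fold changes between -0.19 and 0.18. The 10 below it had standard errors of 0.32 to 1.15 and log2 fold changes between -0.95 and 1.21, and 8 of these, from 7 genes, had a mean signal under 10. FGFR2 had the 0.38, above the 0.37 of the dimmer FGF2 Ssc.17772.1.A1_at. With the sow as a block the standard errors were 0.07 to 0.23 above the median signal and 0.31 to 0.98 below it, and that of FGFR2 was 0.11 (interval -0.42 to 0.07). EGF, HBEGF, AREG and FGF7 were measured by such dim probe sets alone. For these 4 genes a 2-fold higher level with embryos lay inside the 95% interval of every probe set, and with the block inside that of each but FGF7 Ssc.15923.1.A1_at, whose upper bound was then 0.73 on the log2 scale.

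**Figure D3:**
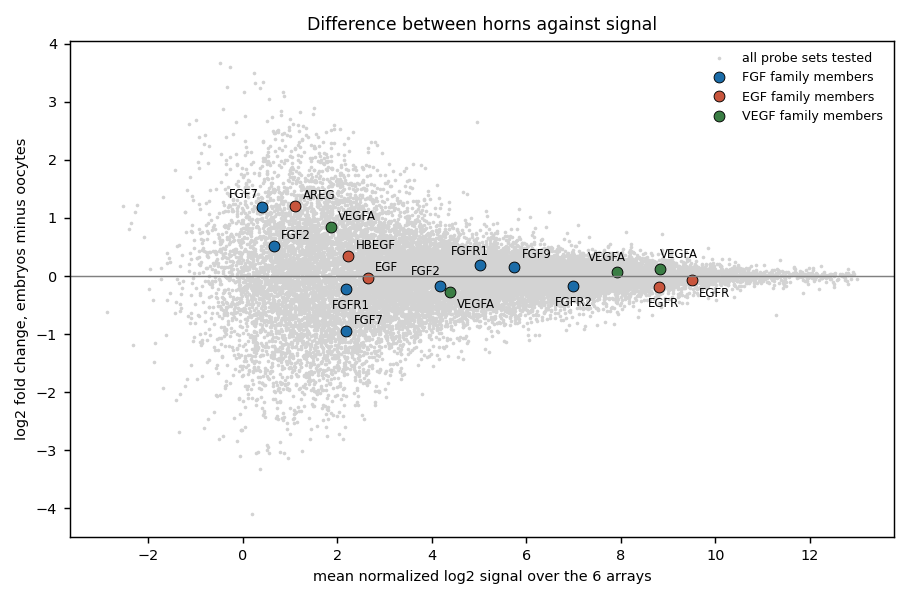
Log2 fold change, embryos minus oocytes (vertical axis), against the mean normalized log2 signal over the 6 arrays (horizontal axis) for the 23999 probe sets tested in grey and the 17 probe sets in colour by family. The coloured points lie within the spread of probe sets of like signal, which narrows from left to right.

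Differences between the sows were larger than those between the horns for some of these genes. A limma F-test of the sow, with the horn's content in the same model, passed an adjusted p of 0.05 for 2 of 17 probe sets or 11.8%, where the array had 2707 or 11.3%. At an unadjusted p under 0.05 it passed for 5 of 17 or 29.4%, where the array had 25.0%. These shares were near those of the array, and the fit made 0 calls over the whole array when its variance trend was left out. The array count was 1317 without the oocyte horn of sow 1 and 1366 without its embryo horn. Of the 17 probe sets, 1 passed without either of these or without the oocyte horn of sow 2, and 4 without the oocyte horn of sow 3. A sow cannot be told apart here from any handling that its 2 arrays shared. The 5′/3′ ratio, averaged over GAPDH and actin on the log2 scale, was -1.84 in the oocyte and -2.39 in the embryo horn of sow 1. It was -2.78 and -3.53 in sow 2 and -2.61 and -2.80 in sow 3, so both horns of sow 1 lay above all others. The part of this ratio in the differences between sows was not tested.

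FGFR2 was the probe set with the clearest order of sows, with an adjusted p of 0.000961 in the limma F-test. Averaged over both horns, sow 1 lay above sow 2 by 0.43 (95% interval 0.13 to 0.73) on the log2 scale, and sow 2 above sow 3 by 0.82 (interval 0.52 to 1.12). Sow 1 therefore stood 2.37-fold above sow 3. Each horn of sow 1 was above each horn of sow 2, and those above each horn of sow 3. Without the variance trend the adjusted p was 0.266.

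VEGFA passed with Ssc.15740.1.S2_at at an adjusted p of 0.0246 in the limma F-test, with sow 1 below sow 2 by 0.48 (interval 0.23 to 0.72) and below sow 3 by 0.49 (interval 0.24 to 0.74). Sows 2 and 3 differed by 0.01 (interval -0.26 to 0.23 for sow 2 minus sow 3). The other bright VEGFA probe set, Ssc.10015.1.A1_at, also had its lowest oocyte and its lowest embryo horn in sow 1, with an adjusted p of 0.197. The adjusted p of Ssc.15740.1.S2_at was 0.344 without the variance trend, 0.263 without the oocyte horn of sow 1, 0.0570 without that of sow 2 and 0.144 without the embryo horn of sow 1. EGFR, by Ssc.12121.1.S1_at, stood lowest in sow 1 and highest in sow 3 in both groups, by 0.35 (interval 0.15 to 0.55). Its adjusted p in the limma F-test was 0.0769. Of the settings that kept all 6 arrays, it passed on the values as deposited and with the filter at the median signal. The other bright EGFR probe set, Ssc.55.1.S1_at, had its highest mean in sow 1 and its lowest in sow 2, with an adjusted p of 0.491 in that test. FGFR1 Ssc.24095.1.S1_at passed only with 32 added to each signal.

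**Figure D4:**
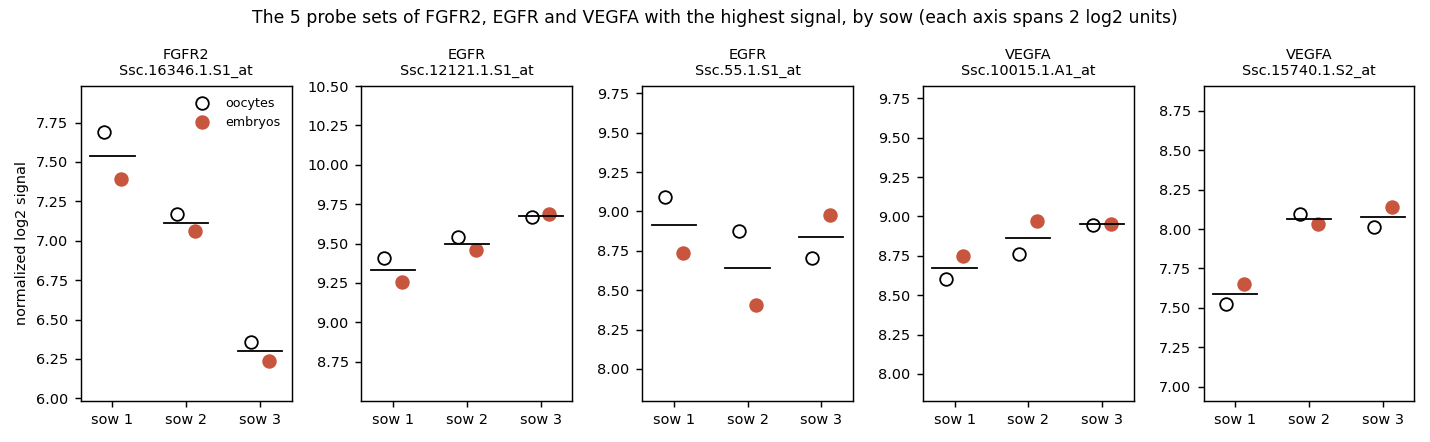
Normalized log2 signal (vertical axis, each panel 2 log2 units high) of the 5 brightest probe sets by sow, with open points for oocyte horns, filled points for embryo horns and a line at the mean of the sow. The 2 horns of a sow lie close together for FGFR2, whose sows are separated, and for VEGFA Ssc.15740.1.S2_at, where sow 1 lies below the others.

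Some markers of the epithelium, stroma, smooth muscle and endothelium also differed between the sows. The limma F-test of the sow passed for 11.3% of the array, and for 0 probe sets without the variance trend. It passed for 0 of 6 leukocyte and 0 of 3 ciliated probe sets. The summed epithelial signal was 7599 to 7850 in sow 1, 9872 to 10251 in sow 2 and 9826 to 10367 in sow 3, and 3 of its 9 probe sets passed the sow test. The stromal sum was 6910 to 7364, 3427 to 3531 and 4957 to 5198 in the same order, with 5 of 9 probe sets passing, and the smooth muscle sum 1370 to 2141, 462 to 573 and 788 to 909, with 2 of 5. The endothelial sum was 495 to 499, 307 to 338 and 406 to 435, with 1 of 15 passing. Thus sow 1, where FGFR2 was highest and VEGFA Ssc.15740.1.S2_at lowest, had the lowest epithelial and the highest stromal, smooth muscle and endothelial sums. FGFR2 was lowest in sow 3, and the stromal sum in sow 2. The brightest epithelial probe set, KRT8 Ssc.15705.1.A1_at, was lowest in sow 1 too, but not every epithelial marker was. EPCAM had an adjusted p of 0.526 in the limma F-test of the sow. CDH1 Ssc.24919.1.A1_at and MUC1 Ssc.17222.1.S1_at had their highest mean in sow 1. The part of these markers in the differences between sows was not tested. In such bulk samples fewer cells of a type and less RNA per cell cannot be told apart. Between embryo and oocyte horns, 0 of the 47 marker probe sets passed the adjusted test, and the unadjusted count was 0 as well. With the sow as a block these counts were 0 and 1 of 47, the latter 2.13% where the array had 8.70%. This 1 was CDH1, an epithelial cadherin, at Ssc.24919.1.A1_at, with a log2 fold change of -0.47 and an unadjusted limma p of 0.0467. The brighter CDH1 probe set, Ssc.7538.1.S1_at, had a log2 fold change of 0.06 and was higher with embryos in all 3 sows.

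The rest of the pathways was read from 9 lists of 122 genes, of which the array named 41 with 73 probe sets. None of the 73 passed the limma test between horns (0 of 73 adjusted). An unadjusted p under 0.05 was reached by 3 of 73, 1 higher and 2 lower with embryos, or 4.11% beside 2.88% of the array. With the sow as a block, 0 of 73 passed. At an unadjusted p under 0.05 there were then 8, 2 higher and 6 lower, or 10.96% beside 8.70% of the array. Those 8 were 1 probe set each of RHBDF2 and LRIG1, both higher, and of HIF1A, FLT1, ADAM10, EPAS1, EXT1 and SDC2, all lower. Every embryo horn lay above every oocyte horn for 2 of 73 or 2.74% and below for 3 or 4.11%, beside 4.03% and 3.98% of the array. The median log2 fold change was -0.03 beside 0.01 over the array, with 9 probe sets or 12.3% higher and 15 or 20.5% lower with embryos in all 3 sows, beside 14.9% and 14.8% of the array.

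The lowest p of all lists belonged to HIF1A, the oxygen-regulated transcription factor that drives VEGFA. Its probe set Ssc.390.2.S1_at gave 76.5, 32.1 and 36.5 with oocytes and 29.8, 13.2 and 12.0 with embryos, and every embryo horn lay below every oocyte horn. The log2 fold change was -1.43 (standard error 0.43), with an unadjusted limma p of 0.00946 and an adjusted p of 0.9996, or of 0.209 with the sow as a block. The brightest HIF1A probe set, Ssc.5542.1.A1_at, had a log2 fold change of -0.01, and the other 2 of this gene, with signals of only 0.5 to 10.7, had 0.33 and 0.70 with standard errors of 0.93 and 1.14. VEGFA, its target, is described above with log2 fold changes of 0.12 and 0.07 at its bright probe sets.

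FLT1, a receptor for VEGFA on endothelial cells, gave 7.9, 9.5 and 15.0 with oocytes and 6.3, 0.9 and 3.0 with embryos at Ssc.3872.1.S1_at. The groups did not overlap, and the log2 fold change was -2.04 (standard error 0.75), with an unadjusted limma p of 0.0243. The unadjusted limma p was 0.0671 without the embryo horn of sow 2 and 0.0904 without the oocyte horn of sow 3. At these low signals 32 added to each shrank the log2 fold change to -0.28. The other FLT1 probe sets, with mean signals under 3 in each group, had log2 fold changes of 1.26 and -0.76. KDR, the main signalling receptor for VEGFA, had 0.78 and 0.74 at 2 probe sets with signals about as low, and VEGFB, with a mean of 209 with oocytes and 217 with embryos, had 0.05.

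RHBDF2, an inactive rhomboid protein that brings the sheddase ADAM17 to the cell surface, had the third unadjusted p under 0.05. It gave 33.9, 23.5 and 35.3 with oocytes and 45.4, 59.2 and 41.8 with embryos, so every embryo horn lay above every oocyte horn, with a log2 fold change of 0.66 (standard error 0.28) and an unadjusted limma p of 0.0419. This unadjusted limma p was 0.0573 without the oocyte horn of sow 1, 0.132 without that of sow 2 and 0.160 without the embryo horn of sow 2. ADAM17 itself, which sheds HBEGF and AREG, had log2 fold changes of 0.28 at its brightest probe set, Ssc.19668.1.S1_at, and of -0.65, 1.13 and -0.12 at Ssc.19668.2.S1_at, Ssc.16050.1.A1_at and Ssc.16050.1.S1_at, none with a p under 0.05. LRIG1, which promotes the breakdown of EGFR, gave 436.4, 500.8 and 450.1 with oocytes and 494.7, 717.6 and 490.6 with embryos, with an unadjusted limma p of 0.121, or 0.0137 with the sow as a block. ADAM10, a sheddase of EGF, gave 96.6, 40.6 and 60.9 with oocytes and 73.5, 29.2 and 42.2 with embryos, with an unadjusted limma p of 0.251, or 0.0176 with the block. EPAS1, a relative of HIF1A, EXT1, which builds heparan sulfate chains, and SDC2 (Ssc.10793.1.A1_at) had log2 fold changes of -0.44, -0.64 and -0.25 and unadjusted limma p-values with the block of 0.0264, 0.0297 and 0.0247.

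Without the block, no probe set of the other lists reached an unadjusted p under 0.05. The other FGF family genes named were FGF1, FGF12, FGF13 and FGF18, and 5 of their 6 probe sets had a negative log2 fold change. Their lowest unadjusted limma p was 0.107, for FGF12 (Ssc.22472.1.S1_at, log2 fold change -0.66). Of the remaining FGF receptors, coreceptors and adaptors, FRS2, the adaptor docked on FGF receptors, had a log2 fold change of 0.04 and FGFBP3 was dim. TGFA, a further EGFR ligand, had -0.05. In the RAS and MAPK relay the 9 probe sets had a median of -0.03, with 0.19 for MAP2K2 and 0.21 for ARAF at the lowest p. In the PI3K, AKT, PLC and STAT relay the 10 probe sets had a median of -0.04. The feedback and target genes, which are switched on when the relay fires, were read at DUSP6, MYC and ETV5. DUSP6 had a log2 fold change of -0.02 at the brighter Ssc.8865.1.A1_at and of -0.17 at Ssc.8865.2.S1_at, and MYC had -0.10. ETV5 had 0.11 at the brighter Ssc.22031.2.A1_at and -0.36 at Ssc.22031.1.S1_at, with signals of 1.2 to 9.2 and a standard error of 0.89.

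**Figure D5:**
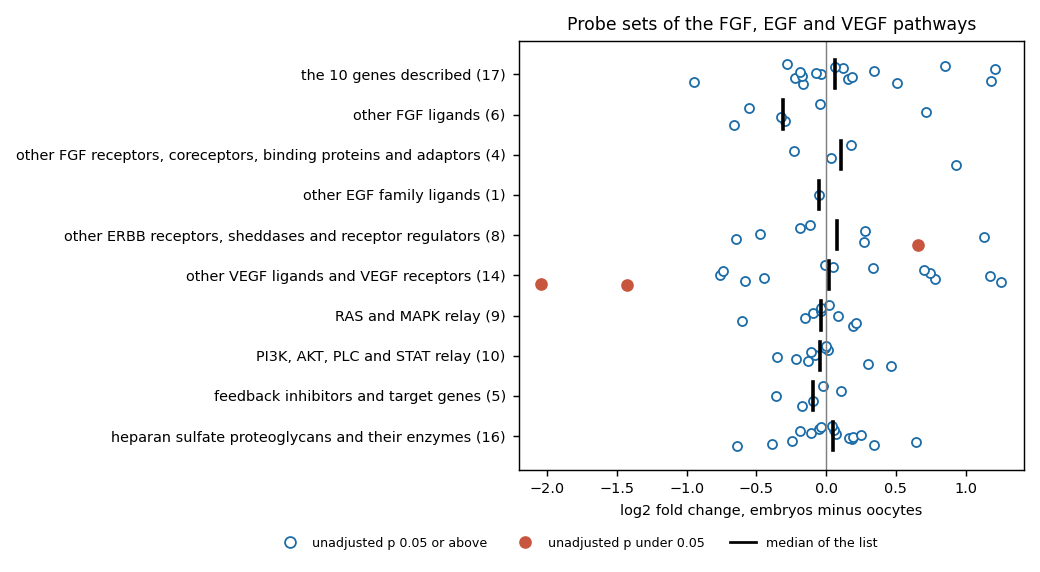
Log2 fold change, embryos minus oocytes (horizontal axis), of each probe set of the 10 genes and of the 9 further lists, with the number of probe sets in brackets and the median of each list as a bar. The 3 filled points, with an unadjusted p under 0.05, are HIF1A, FLT1 and RHBDF2.

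Between sows, 10 of the 73 pathway probe sets or 13.7% passed the adjusted limma F-test, beside 11.3% of the array. Of these 10, 6 were among the 16 of the heparan sulfate proteoglycans and their enzymes, or 37.5% of that list. These 6 came from only 3 of its 7 genes, SDC1, SDC2 and HS2ST1, so probe sets of 1 gene were counted more than once. SDC1, syndecan 1, the main heparan sulfate proteoglycan of epithelial cells, gave 42.9, 194.7 and 282.4 with oocytes and 60.4, 191.4 and 345.9 with embryos at Ssc.31172.1.S1_at, with an adjusted p of 2.41e-05. Sow 1 lay far below the others in both groups, and Ssc.31172.3.S1_at had the same order of sows with an adjusted p of 0.000764. SDC2, syndecan 2, which mesenchymal cells carry, stood the other way round, at 222.7, 133.4 and 99.7 in the embryo horns of sows 1, 2 and 3 at Ssc.2485.1.S1_at, and in the same order in the oocyte horns (adjusted p = 0.000780). This is the order of sows seen for FGFR2. HS2ST1, which adds sulfate to the chains that FGF ligands bind, was highest in sow 2 at Ssc.26363.1.S1_at, with 562.8 in the oocyte horn and 578.3 in the embryo horn, against 298.1 to 369.7 in the other horns (adjusted p = 0.00208). Without the variance trend the adjusted p of these 4 probe sets ranged from 0.266 to 0.288.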

How the data were processed

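The authors hybridised 1 Affymetrix porcine array per uterine horn and deposited MAS5 5.1 signals, intensities on a linear scale with each array scaled to a common trimmed mean. These values do not carry the Lowess step of the methods. Detection calls and qPCR were not analysed here. Arrays have no sequencing depth, and 3 arrays per group limit the precision. Signals under 0.1 were set to 0.1, log2 values were normalized by cyclic loess, 124 control probe sets were removed, and 23999 were tested with limma 3.58.1 in R 4.3.3 (group only, variance trend, Benjamini-Hochberg at 0.05, no filter). The fit was tested on simulated data. Plots used matplotlib 3.10.9 in Python 3.11.15. The annotation gives 1 symbol to 10069 probe sets, several to 198 and none to 13732, and a current table, matched by gene ID for 9961, changed 0 symbols.

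Equal replicate numbers were taken as 1 sow, since the per-sow ratios in the methods equal those of same-numbered arrays. Deviations from the group means correlated at 0.207, 0.173 and 0.100. The sow was a block in a second fit, where its own effect was tested by an F-test.

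The genes and lists were chosen with earlier results of these data known, so no list was tested. The genes named are the 10 genes at every probe set and the 4 pathway probe sets with the smallest p between sows. Genes of each list were to come from its up to 4 probe sets with the smallest p between horns. ARNT, SDC4, GRB2, SHC1, STAT5A, STAT5B and AKT1 came under this rule too, but their values are not given. Further probe sets of HIF1A, FLT1, ADAM17, DUSP6, EXT1 and SDC2, and those of KDR, VEGFB, ADAM10, EPAS1 and single cell type markers, were named after their values were seen. Alternatives were quantile normalization, no normalization between arrays, an offset of 32, a filter at the median signal, a fit with no trend, the block, and leaving out each array.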

Additional observations from a re-analysis of the deposited data

How the results depend on the processing

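Under 12 alternatives, 0 of the 17 probe sets passed the adjusted test between horns (lowest adjusted p = 0.697, limma), and 180 of 194 log2 fold changes kept their direction. The replicate block, which pairs the horns of a sow, changed no call, with 0 of 17 and 0 of 23999 probe sets passing. No scaling or offset turned a direction. Only leaving out an array did so, with ranges of -0.37 to 0.10 for FGF2 Ssc.17772.1.A1_at, -0.041 to 1.50 for FGF2 Ssc.17772.1.S1_at, -0.011 to 0.26 for FGF9, -0.89 to 0.63 for FGFR1 Ssc.24095.1.S1_at, -0.53 to 0.15 for FGFR2, -0.22 to 0.24 for EGF, -0.18 to 0.029 for EGFR Ssc.12121.1.S1_at, -0.011 to 0.79 for HBEGF and -0.11 to 0.21 for VEGFA Ssc.15740.1.S2_at. These leave-out fits had no block, so the sow that lost an array stood in 1 group only. Differences between sows thus enter these log2 fold changes. The count of the 17 with an unadjusted p under 0.05 ranged from 0 to 1 over the 12 alternatives. The calls between sows rested on the variance trend, without which 0 probe sets passed over the array and 0 of the 17, and the cause was not tested. Leaving out an array gave 1317 to 3638 calls between sows over the array and 1 to 4 of the 17. Without its oocyte horn, a sow enters the test with 1 array, as it does without its embryo horn. The filter on the median signal kept 7 of the 17 probe sets, so the other 10 have no value under it. Signals under 10, where 8 of the 17 lie, limit what could be seen.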
